A study of Triticum monococcum with 54 samples.

Results

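The 60 genes described here were the most abundant transcripts of developing einkorn grain among those held by the 2 complete count tables, for unfed and fully fed plants, but not by the table for plants given nitrogen (N) without sulfur (S), as used here. The N-S- and N+S+ tables each held 32047 accessions and the N+S- table as used held 18308, which left 13739 candidates. Each candidate was ranked by its highest stage mean, the largest of 6 means of the deposited normalised CPM over the 3 N-S- libraries of a stage, and the first 60 were taken. All 60 were in the N+S+ table, and all 60 passed the filter on low counts that left 16789 genes for testing. The members were thus chosen by their levels in N-S- grain, which are given as a description. Libraries of N+S+ grain took no part in the choice. The last member inside the list, TmLoc032475, had a highest stage mean of 1167 and the one before it, TmLoc039152, of 1176, and the first 2 outside, TmLoc030724 and TmLoc037986, had 1161 and 1153. The files pair no accession with a name or description, so genes are given by their TmLoc identifier and no role is assigned to any of them.

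Grain came from Triticum monococcum ssp. monococcum, a diploid wheat, accession ERGE 35821, grown in a greenhouse on perlite and sand and watered without nutrients until flowering. N-S- plants were given a solution free of N and S from 200 to 700 °Cd after anthesis (degree days, accumulated temperature after flowering), and N+S+ plants one with 6 mM N and 2 mM S. N-S- grain was sampled at 100, 200, 300, 400, 500 and 600 °Cd and N+S+ grain at 300, 400, 500 and 600 °Cd, 3 libraries a group, which the labels call biological replicates. Grain of 100 and 200 °Cd carries the N-S- label, although feeding began at 200 °Cd. Polyadenylated RNA of whole grain was sequenced, so all grain tissues were mixed, and fewer cells of a type cannot be told apart from less RNA per cell. The series held 54 libraries, of which the 30 in the complete tables were used.

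A cereal grain first divides its endosperm cells and then fills them with starch and storage protein, and in the last phase it prepares for drying. In wheat the storage proteins, the gliadins and glutenins, come from large gene families whose transcripts are among the most abundant of the filling grain. Their expression is known to respond to N and S supply, with S-rich and S-poor classes responding differently. Which of the 60 accessions, if any, belong to these families is not stated in any source at hand.

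The 30 libraries held 1344965 to 5356417 counts. At 500 °Cd the 3 N-S- libraries differed from all others: they had counts for 14657 to 16112 accessions, against at least 16215 in each other library, and their replicates correlated at 0.829 to 0.850 across genes, against at least 0.899 in the other groups. Both treatments shared a sequencing lane at 300, at 400 and at 600 °Cd. At 500 °Cd the N-S- libraries were on lane 4 and the N+S+ libraries on lane 5, so treatment and lane cannot be told apart there.

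The list was steeply ranked. TmLoc035876 came first with a highest stage mean of 30882 deposited normalised CPM, at 500 °Cd, and TmLoc037095 second with 29119, at 600 °Cd. The next 5 were TmLoc029675 (14109), TmLoc035492 (14031) and TmLoc035491 (11273) at 300 °Cd, and TmLoc035010 (13663) and TmLoc037807 (13294) at 400 °Cd. The first 12 were completed by TmLoc041442 (8686), TmLoc031120 (6272), TmLoc035853 (6178), TmLoc034037 (5210.2) and TmLoc027073 (5031). Among all 32047 accessions of the N-S- table the 60 ranked 5th to 129th, so 4 genes outside the list ranked higher.

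From here on, levels are CPM, that is, counts set to one library size with the trimmed mean of M values (TMM) over both tables, which puts the 2 treatments on 1 scale. Per kilobase of deposited length the order changed. At its highest N-S- stage mean, TmLoc035876 reached 64013 CPM per kb, TmLoc037807 32176, TmLoc035010 28232, TmLoc035492 23344 and TmLoc035491 19407, all ahead of TmLoc037095 with 14830.5. Those 5 are short, between 379 and 537 bases, against a median of 1530.5 bases over the 60 (318 to 8415) and 1905 over the other 8195 tested candidates. TmLoc035876 and TmLoc035010 have the same length, 444 bases. Consecutive identifiers occur once, in TmLoc035491 (519 bases) and TmLoc035492 (537 bases). Whether any of these genes are near-identical copies between which the authors' counting could split reads was not tested, since no sequence was at hand, so the level of a single member of such a pair is uncertain.

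The 60 genes took up a changing share of each library. It was 4.54% ± 0.267 of raw counts (SD, n = 3, as for all shares) at 100 °Cd, 7.95% ± 0.546 at 200, 13.8% ± 0.306 at 300, 13.0% ± 0.584 at 400, 13.3% ± 0.797 at 500 and 12.3% ± 0.136 at 600 °Cd in N-S- grain. In N+S+ grain the share was 16.7% ± 2.40 at 300, 14.5% ± 0.543 at 400, 13.5% ± 0.0826 at 500 and 13.5% ± 1.00 at 600 °Cd. The N-S- libraries all lay below the N+S+ libraries at 300 and 400 °Cd, and the groups overlapped at 500 and 600 °Cd. Averaged over the 4 stages the share was 13.1% in N-S- grain and 14.6% in N+S+ grain. The 95% Wilson interval of a library's share was at most 0.116 percentage points wide, which covers counting error only, so the spread between libraries is the larger error.

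The averaged share was lower by 1.46 percentage points in N-S- grain (a difference of -1.46), and 2 genes, singled out after their values were seen, had a difference of -1.48 points between them. TmLoc035491 and TmLoc035492 together took 2.28% ± 0.674 at 300, 0.465% ± 0.223 at 400, 0.322% ± 0.150 at 500 and 0.379% ± 0.184 at 600 °Cd in N-S- grain. In N+S+ grain they took 5.82% ± 2.32 at 300, 1.55% ± 0.467 at 400, 1.01% ± 0.0677 at 500 and 0.984% ± 0.132 at 600 °Cd. Each N-S- library lay below all 3 N+S+ libraries of its stage. The other 58 genes held 12.3% in N-S- grain and 12.2% in N+S+ grain over the 4 stages, and their groups overlapped at each stage. Members that lay either way were summed in these totals. The 48 members below the first 12 held 4.51% at 300 °Cd in the N-S- libraries, against 3.64% in N+S+ grain, and were higher without overlap at 300, 500 and 600 °Cd. The choice of members by high N-S- levels favours a higher share in N-S- grain, here and for the first 2 of the list below. The 7 members highest at 400 °Cd were lower without overlap at 300 and 600 °Cd and held 3.21% in N-S- grain and 4.09% in N+S+ grain over the 4 stages. Of the first 2 of the list, TmLoc035876 and TmLoc037095, the joint share was higher in N-S- grain, at 1.88%, 3.14% and 4.23% in the N-S- libraries of the first 3 fed stages (300, 400 and 500 °Cd), against 1.67%, 2.81% and 3.72% in the N+S+ libraries, with no overlap at these 3 stages. At 600 °Cd it was 4.40% in N-S- grain and 4.18% in N+S+ grain, and the groups overlapped. At 500 °Cd the 2 genes lay in opposite directions without overlap. TmLoc035876 averaged 28422 ± 1529.7 CPM in the N-S- libraries, against 17035 ± 2215 in N+S+ grain, and TmLoc037095 16109 ± 4922, against 25861 ± 5219. At 500 °Cd neither was called (adjusted p 0.0888 and 0.139), and the higher joint share there was that of TmLoc035876. It was the N-S- mean of that stage that ranked TmLoc035876 first.

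**Figure D1:**
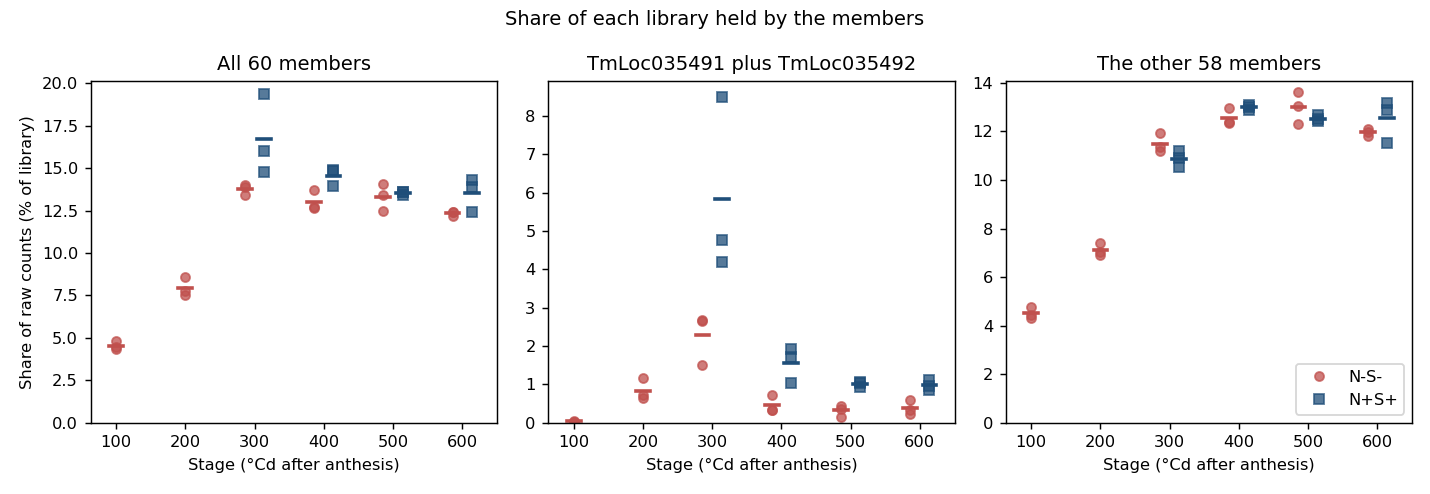
Share of a library's raw counts (%) held by the 60 genes, by TmLoc035491 plus TmLoc035492 and by the other 58, against stage (°Cd after anthesis). Each point is 1 library, circles N-S- and squares N+S+ grain, and bars are means of 3. The 60 genes hold 4.32% to 19.4% of a library, the pair is lower in every N-S- library than in the N+S+ libraries of its stage from 300 °Cd on, and the other 58 overlap at each stage.

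The time course of N-S- grain, which the choice of members used, spread the 60 over all 6 stages. By the stage of the highest mean, 7 were highest at 100 °Cd, 8 at 200, 15 at 300, 7 at 400, 5 at 500 and 18 at 600 °Cd. The largest of these groups by share changed with time. The 15 genes highest at 300 °Cd held 6.38% of counts at that stage, and the 18 highest at 600 °Cd held 5.04% at 600, against 0.704% at 100 °Cd.

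Among the genes highest at 100 °Cd, 3 were no longer counted late in filling. TmLoc030328 had 2761, 2146 and 2008 CPM at 100 °Cd, 376, 436 and 582 at 200 and 33.4, 24.4 and 22.1 at 300 °Cd. Its counts summed to 263 at 300 °Cd, 0 at 400, 0 at 500 and 1 at 600 °Cd. TmLoc042794 had 1456, 1713 and 1416 CPM at 100 °Cd and no count at 400, 500 or 600 °Cd, and TmLoc033692 had 1624, 1318 and 1303 CPM at 100 °Cd and no count at 500 or 600 °Cd. TmLoc040273 kept a trace, with 1309, 1672 and 1370.4 CPM at 100 °Cd, 667, 720.0 and 847 at 300 and 7.50, 20.4 and 8.94 at 600 °Cd. TmLoc029035 belonged to the same group but kept most of its level, with 1420.0, 1794 and 1453 CPM at 100 °Cd, 1458, 1315 and 1490.3 at 300 and 1023, 924 and 1124 at 600 °Cd.

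Of the 8 genes highest at 200 °Cd, TmLoc028126 was the most confined to that stage. It averaged 16.8 ± 4.22 CPM at 100 °Cd (SD, n = 3, as for all means), 1249 ± 87.8 at 200, 456 ± 115 at 300 and 11.8 ± 8.37 at 600 °Cd. The rest of the group varied less, and TmLoc028632, singled out after its values were seen, had the flattest course of the 60, its highest stage mean being 1.36 times its lowest.

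The middle of the course held the leading short genes. TmLoc035492 had 194, 112 and 61.5 CPM at 100 °Cd, 8479, 16011 and 13117 at 300 and 3321, 1772 and 1201 at 600 °Cd, a course with a single high stage. TmLoc029675 stayed near its highest level for longer, averaging 12603 ± 1951 CPM at 300, 11943 ± 2143 at 400 and 5648 ± 1005 at 600 °Cd. TmLoc034037 averaged 4654 ± 554 CPM at 300, 2957 ± 105 at 400 and 819 ± 408 at 600 °Cd. The share of the highest stage mean still present at 600 °Cd ranged from 8.34% to 81.0% (median 30.2%) over the 15 genes highest at 300 °Cd and from 33.1% to 84.3% (median 72.6%) over the 7 highest at 400 °Cd, so the 2 groups overlapped. Among the 7, TmLoc037807 kept 41.8% and TmLoc035853 33.1%, less than the 44.8% of TmLoc029675. TmLoc035010 averaged 118 ± 85.0 CPM at 100, 12535 ± 2979.6 at 400 and 10568 ± 2686 at 600 °Cd, and TmLoc041442 7972 ± 538 at 400, 6660.3 ± 1078 at 500 and 5791 ± 653 at 600 °Cd. TmLoc035876, the first of the list, had 240.0, 108 and 54.9 CPM at 100 °Cd, then 17474, 15676 and 14402 at 300 °Cd. It reached 28780.1, 26745 and 29741 CPM at 500 °Cd, between 21455, 24478 and 20789 at 400 and 18573, 20333 and 22742 at 600 °Cd. No library of 400 or 600 °Cd reached the lowest one of 500 °Cd.

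The 18 genes highest at 600 °Cd fell into those barely counted early and those present throughout. TmLoc037095 had 31.9, 11.7 and 6.87 CPM at 100 °Cd, 2742, 2706 and 2772 at 300 and 28848, 24826 and 26232 at 600 °Cd. TmLoc035807 summed to 1 count over the 3 libraries of 100 °Cd and 5 counts at 200 °Cd, and had 1902, 1164 and 2211 CPM at 600 °Cd. TmLoc042811 summed to 13 counts at 100 °Cd and 4 at 200 °Cd and averaged 1446 ± 83.2 CPM at 600 °Cd. In contrast TmLoc033818 averaged 322 ± 22.4 CPM at 100, 234 ± 11.8 at 300 and 1174 ± 128 at 600 °Cd. Of the 60 genes, 55 had at least 1 count in each of the 30 libraries.

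**Figure D2:**
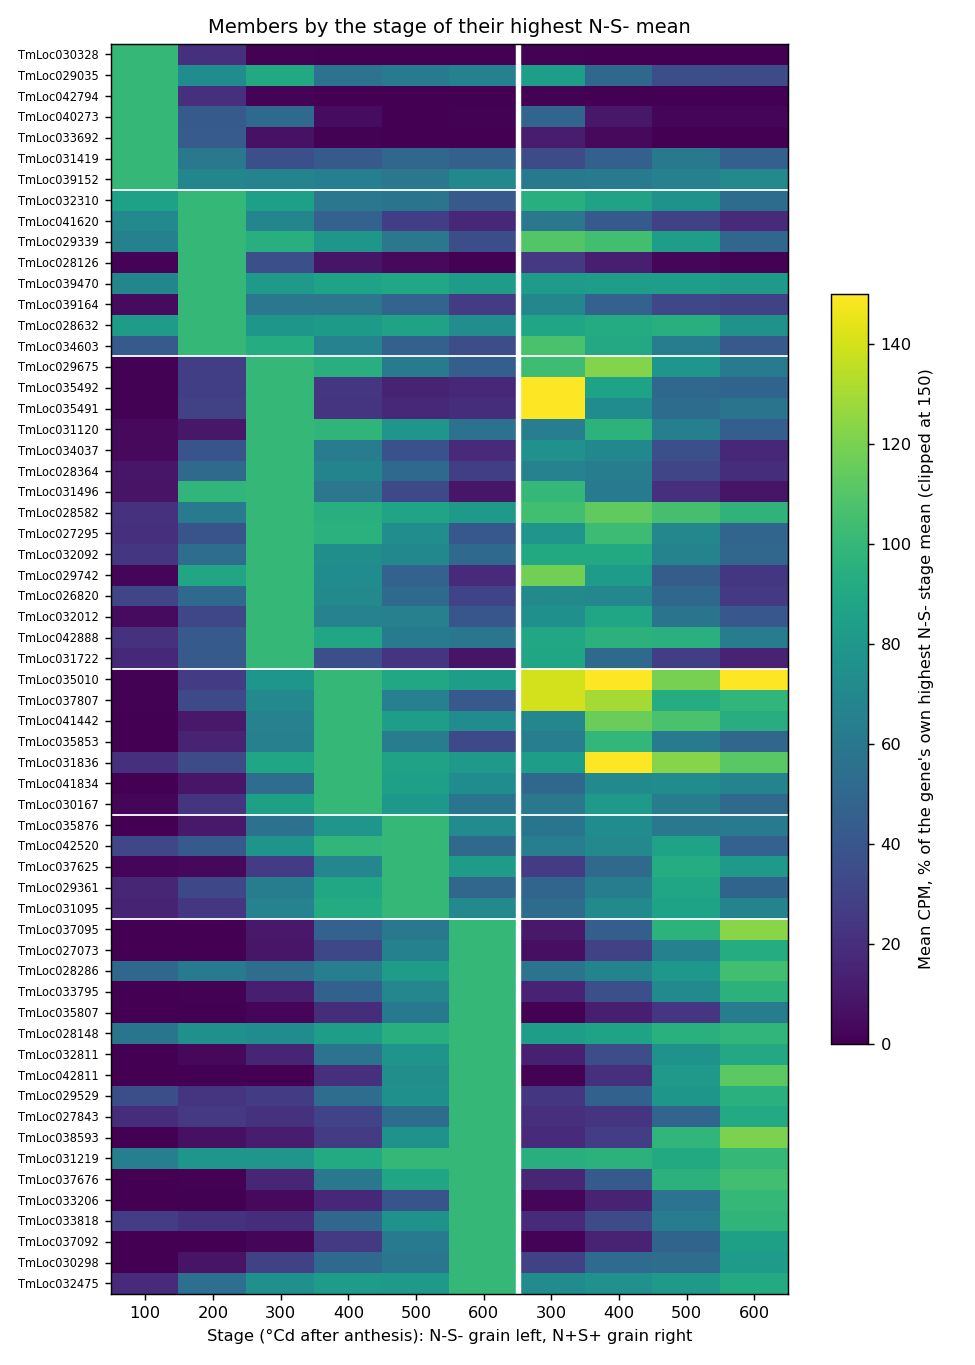
Mean CPM of each of the 60 genes (rows) by stage (columns, °Cd after anthesis), as a percentage of the gene's own highest N-S- stage mean and clipped at 150, N-S- grain left and N+S+ grain right. Rows are ordered by the stage of the highest N-S- mean, which gives groups of 7, 8, 15, 7, 5 and 18 genes, and 48 of the 60 have the same highest stage among 300 to 600 °Cd in both treatments.

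N+S+ grain, whose libraries did not choose the members, gives tests of the change with time. Between 600 and 300 °Cd, 43 of the 60 genes were called at an adjusted p under 0.05 (edgeR quasi-likelihood test), 18 higher at 600 °Cd (17.5% of all genes tested) and 25 lower (20.8%), with 38.3% of all genes tested called either way. The median size of the change was 1.31 on the log2 scale over the 60 and 0.75 over all genes tested. The direction followed the N-S- course: 16 of the 18 genes highest at 600 °Cd in N-S- grain rose in N+S+ grain and none fell, 14 of the 15 highest at 300 °Cd fell and none rose, and none of the 7 highest at 400 °Cd was called. These stages were on lanes 3 and 5, so stage and lane cannot be told apart in this comparison.

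The members that rose most were scarce in fed grain at 300 °Cd. TmLoc042811 had 1848, 1780.2 and 1242 CPM at 600 °Cd, against 17.3, 8.11 and 24.5 at 300 °Cd (log2 change 6.61 ± 0.33 SE, adjusted p 8.25e-20). TmLoc035807 had 987, 1195 and 1149.8 CPM at 600 °Cd, against 14.3, 15.9 and 20.7 at 300 °Cd (6.03 ± 0.31, adjusted p 2.28e-19). The next were TmLoc037092 (5.66 ± 0.24, adjusted p 1.46e-21) and TmLoc033206 (5.15 ± 0.23, adjusted p 5.31e-21), and in all 4 genes the stages did not overlap. TmLoc037095, far more abundant, averaged 32831 ± 6323 CPM at 600 °Cd, against 2673 ± 512 at 300 °Cd (3.62 ± 0.29, adjusted p 1.89e-13).

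The members that fell most had no count left at 600 °Cd. TmLoc033692 summed to 0 counts at 600 °Cd, against 1635 at 300 °Cd, at least 435.5-fold lower when 3 counts over the group are taken as the floor. On the same floor TmLoc030328 was at least 65.5-fold lower (0 counts, against 246) and TmLoc042794 at least 46.1-fold lower (0 counts, against 173). Their adjusted p were 4.86e-18, 2.81e-12 and 2.97e-10. TmLoc028126 kept a trace, with 6.75, 19.4 and 5.91 CPM at 600 °Cd, against 298, 299 and 331 at 300 °Cd (-4.85 ± 0.39, adjusted p 1.95e-13).

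Step by step, 26 of the 60 were called for 400 against 300 °Cd, 16 higher and 10 lower, where 6.31% of all genes tested were called, 3.45% higher and 2.86% lower. For 500 against 400 °Cd 26 were called, 13 higher and 13 lower, where 6.06% of all genes were called, 3.28% higher and 2.79% lower. For 600 against 500 °Cd 17 were called, 6 higher and 11 lower, where 7.3% of all genes were called, 2.47% higher and 4.84% lower. The median size of the log2 change over the 60 was 0.50, 0.56 and 0.42 for these steps in order. Over all genes tested it was 0.37, 0.40 and 0.41, so in the last step the sizes were alike. The members are also more abundant than most genes tested, so the shares called compare unlike genes. The last step lies within a lane. The genes highest at 600 °Cd supplied 12 of the 16 that rose in the first step and all of those that rose in the other 2 steps. Without 1 N+S+ library the count of the middle step was as low as 17 (without replicate 2 of 500 °Cd, where 3.17% of all genes were called). That of the last step was 10 without replicate 1 or 3 of 500 °Cd (3.88% and 3.31% of all genes) and 8 without replicate 3 of 600 °Cd (2.43%).

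The order of the stages was similar in the 2 treatments for most members. Of the 60 genes, 48 had the same highest stage among 300, 400, 500 and 600 °Cd in N-S- and N+S+ grain, with no share of all genes to set beside it. By highest N-S- stage these were 7 of 7 genes at 100, 7 of 8 at 200 and 17 of 18 at 600 °Cd. Agreement was lower for genes highest in between, with 9 of 15 at 300, 4 of 7 at 400 and 4 of 5 at 500 °Cd. Across the 57 genes with counts in each group compared, the log2 ratio of 600 to 300 °Cd in N-S- grain and that in N+S+ grain had a Pearson r of 0.990, a description across genes that share libraries and lanes and were chosen for high N-S- levels. The largest differences between the 2 ratios were in TmLoc040273, whose log2 ratio was -5.92 in N-S- grain and -4.64 in N+S+ grain, and TmLoc031722, with -3.58 and -2.57. They were followed by TmLoc042811, with 7.47 in N-S- grain and 6.61 in N+S+ grain, TmLoc035807, with 5.21 and 6.03, and TmLoc029035, with -0.47 and -1.28. For TmLoc029035 the mean at 600 °Cd was 1024 ± 100.1 CPM, against 1421 ± 93.3 at 300 °Cd, in N-S- grain and 535 ± 45.5 CPM, against 1301 ± 46.7 at 300 °Cd, in N+S+ grain. The test of that difference, the N-S- against N+S+ response at 600 °Cd minus the response at 300 °Cd, called none of the 60 in edgeR and none in DESeq2, against 0.0417% of all genes tested in edgeR. At an unadjusted p under 0.05 edgeR gave 6 of the 60, against 5.0% of all genes tested. TmLoc029035 had the smallest p among them (0.81 ± 0.23, unadjusted p 0.00109, adjusted p 0.311).

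**Figure D3:**
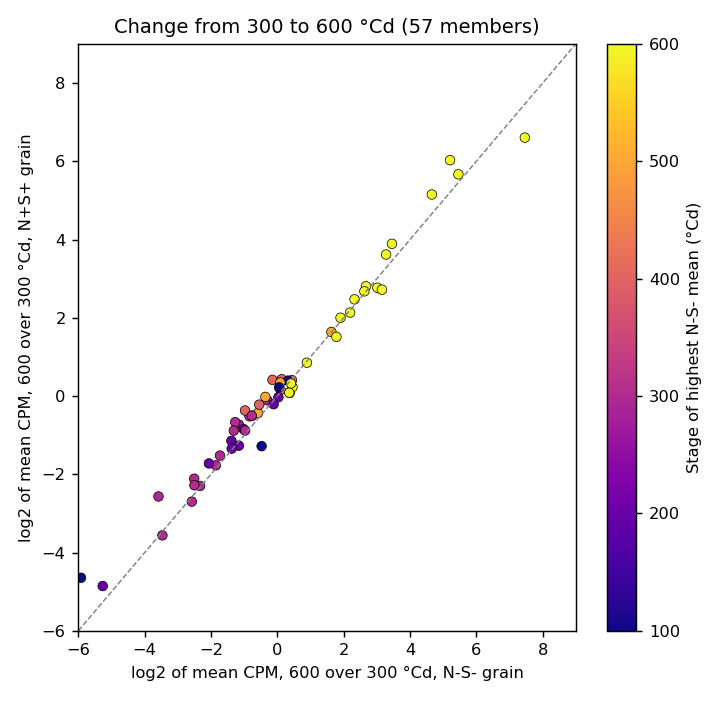
Log2 ratio of mean CPM at 600 to mean CPM at 300 °Cd in N+S+ grain (vertical axis) against the same ratio in N-S- grain (horizontal axis). Each point is 1 of the 57 genes with counts in all 4 groups, coloured by the stage of its highest N-S- mean, and the dashed line marks equal ratios. The points lie along the line (r = 0.990), with genes highest at 600 °Cd at the upper end and genes highest at 100 to 300 °Cd at the lower end.

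The response to feeding was measured as the average of the 4 log2 ratios of N-S- to N+S+ grain at 300, 400, 500 and 600 °Cd. By this measure 18 of the 60 genes were called, 8 higher (1.14% of all genes tested) and 10 lower in N-S- grain (2.24%), 3.38% of all genes tested being called either way. The median response was 0.04 over the 60 and -0.02 over all genes tested, and the median size 0.23 and 0.19. Only 4 of the 18 differed by 2-fold or more. High N-S- levels chose the members, which favours genes that are higher in N-S- grain at the stages compared. Of the 18, 13 had their highest N-S- mean at one of these stages, 7 of the 8 higher and 6 of the 10 lower. For those 13, the adjusted p of the averaged response describes the values and is no independent support. The other 5 were chosen by 100 or 200 °Cd, outside the stages compared: TmLoc029035, which was higher, and TmLoc040273, TmLoc032310, TmLoc029339 and TmLoc034603, which were lower. With 500 °Cd left out, where treatment and lane cannot be told apart, 9 genes were called, 5 higher (0.381% of all genes tested) and 4 lower (0.59%), with 0.971% called either way. Those 9 were TmLoc035807, TmLoc029035, TmLoc037092, TmLoc030167 and TmLoc032811, which were higher in N-S- grain, and TmLoc035492, TmLoc035491, TmLoc037807 and TmLoc035010, which were lower. Only TmLoc029035 among them has its highest N-S- mean outside the stages compared. For the others the adjusted p is again a description and no independent support.

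**Figure D4:**
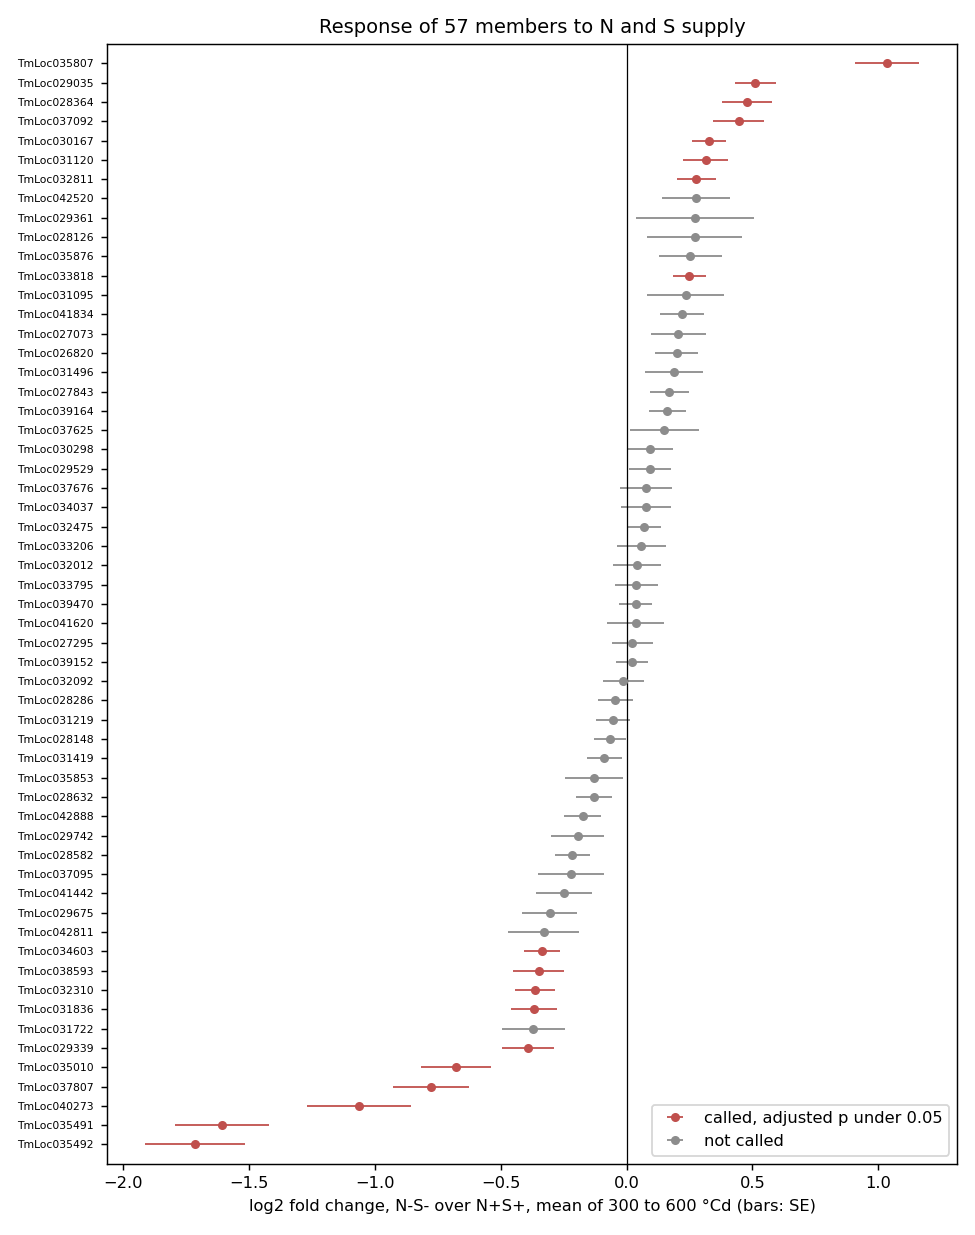
Log2 fold change of N-S- over N+S+ grain, averaged over 300, 400, 500 and 600 °Cd, with its SE (bars), for the 57 genes with counts in every group. Red points are the 18 called at an adjusted p under 0.05 in edgeR. The called genes run from -1.71 (TmLoc035492) to 1.03 (TmLoc035807), and the others lie between -0.37 and 0.28.

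The largest decrease in unfed grain was in TmLoc035492. At 300 °Cd it had 8479, 16011 and 13117 CPM in the N-S- libraries, against 27830.4, 58626 and 30876 in N+S+ grain, and at 400 °Cd 1979.9, 5157 and 1721, against 12053, 6986 and 13591. At 500 °Cd it had 2577, 2065 and 690.0 CPM in the N-S- libraries, against 6121, 6249.5 and 6376 in N+S+ grain, and at 600 °Cd 3321, 1772 and 1201, against 6397, 7239 and 4439.8. The groups did not overlap at any of the 4 stages, and the averaged response was -1.71 ± 0.20 on the log2 scale, or 3.28-fold lower (SE, adjusted p 8.43e-08).

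Its neighbour by identifier, TmLoc035491, behaved alike in every group. It had 6422, 11509.5 and 12285 CPM in N-S- libraries of 300 °Cd, against 18657, 44299 and 23046 in N+S+ grain, and 3193, 1596 and 1222 at 600 °Cd, against 5517, 6662 and 5306. Its averaged response was -1.61 ± 0.19 (adjusted p 9.47e-08), again with no overlap at any stage. In both genes replicate 2 of N+S+ grain at 300 °Cd was the highest library of all 30. The ratio of TmLoc035491 to TmLoc035492 counts stayed between 0.635 and 1.23 over the 30 libraries, with a median of 0.804.

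TmLoc037807 and TmLoc035010, both highest at 400 °Cd in N-S- grain, were lower in unfed grain by less. TmLoc037807 had 8437, 9601 and 7794 CPM in N-S- libraries of 300 °Cd, against 13829, 19766 and 17564 in N+S+ grain, and 6356, 4895 and 4025 at 600 °Cd, against 10296, 14635 and 11219.8. Its groups overlapped only at 400 °Cd, where N-S- replicate 2 had 16587 CPM, and the averaged response was -0.78 ± 0.15 (adjusted p 0.00113). TmLoc035010 had 9600.1, 11205 and 8794 CPM in N-S- libraries of 300 °Cd, against 14177, 20298 and 18184 in N+S+ grain, and 13619.8, 9520.0 and 8563 at 600 °Cd, against 17346, 23506 and 17950.0. It did not overlap at any stage, with the closest libraries at 400 and 500 °Cd, and its averaged response was -0.68 ± 0.14 (adjusted p 0.00212). TmLoc035491, TmLoc035492 and TmLoc035010 were the 3 of the 60 genes that were lower without overlap at all 4 stages, against 0.0774% of all genes tested, and none was higher at all 4, against 0.107%.

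TmLoc035010 can be set beside TmLoc035876, which has the same length. Counts of TmLoc035010 per count of TmLoc035876 averaged 0.625 ± 0.0836 in N-S- libraries of 300 °Cd, against 1.06 ± 0.0758 in N+S+ grain, 0.559 ± 0.0809 at 400, against 0.906 ± 0.0878, 0.398 ± 0.113 at 500, against 0.889 ± 0.138, and 0.526 ± 0.185 at 600 °Cd, against 1.12 ± 0.0403 (SD, n = 3). The ratio was lower in every N-S- library of 300 to 600 °Cd than in any N+S+ library. TmLoc035876 itself was not called, its averaged response being 0.25 ± 0.13 (adjusted p 0.321). Within a library this ratio shows that the 2 genes changed unequally, not which of them changed.

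TmLoc040273 was scarce from 400 to 600 °Cd and had lower means there in unfed grain, without overlap only at 500 °Cd. It had 667, 720.0 and 847 CPM in N-S- libraries of 300 °Cd, against 769, 689.7 and 680.1 in N+S+ grain, and the groups overlapped. At 500 °Cd it had 4.40, 18.2 and 2.02 CPM, against 33.2, 52.4 and 28.7, with no overlap, but treatment and lane cannot be told apart there. At 400 °Cd it averaged 75.8 ± 45.6 CPM, against 138 ± 23.7, with overlap, and was not called (adjusted p 0.325). The groups also overlapped at 600 °Cd, where the gene was not called. The averaged log2 response of -1.06 ± 0.21 (adjusted p 0.000968) comes from 400 to 600 °Cd, where no library had more than 154 CPM, and its means over the 4 stages were 210.2 and 229.4 CPM in N-S- and N+S+ grain. Without 500 °Cd the gene was not called (adjusted p 0.171).

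Smaller decreases were called in TmLoc029339 (-0.39 ± 0.10, adjusted p 0.0214), TmLoc031836 (-0.37 ± 0.09, adjusted p 0.0139) and TmLoc032310 (-0.36 ± 0.08, adjusted p 0.00465). TmLoc032310 averaged 1866 ± 434 CPM in N-S- libraries of 400 °Cd, against 2716 ± 184 in N+S+ grain, and TmLoc031836 1829 ± 407, against 2733 ± 360.2. The remaining 2 of the 10, TmLoc038593 (-0.35) and TmLoc034603 (-0.34), were outside the rule for named genes and were picked after their values were seen. None of these 5 was called without 500 °Cd, where their responses were of similar size, from -0.36 (TmLoc029339) to -0.30 (TmLoc034603), with adjusted p from 0.0601 (TmLoc032310) to 0.197 (TmLoc038593), and TmLoc029339 was not called without replicate 3 of N-S- grain at 400 °Cd (adjusted p 0.0586) or replicate 1 of N+S+ grain at 600 °Cd.

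**Figure D5:**
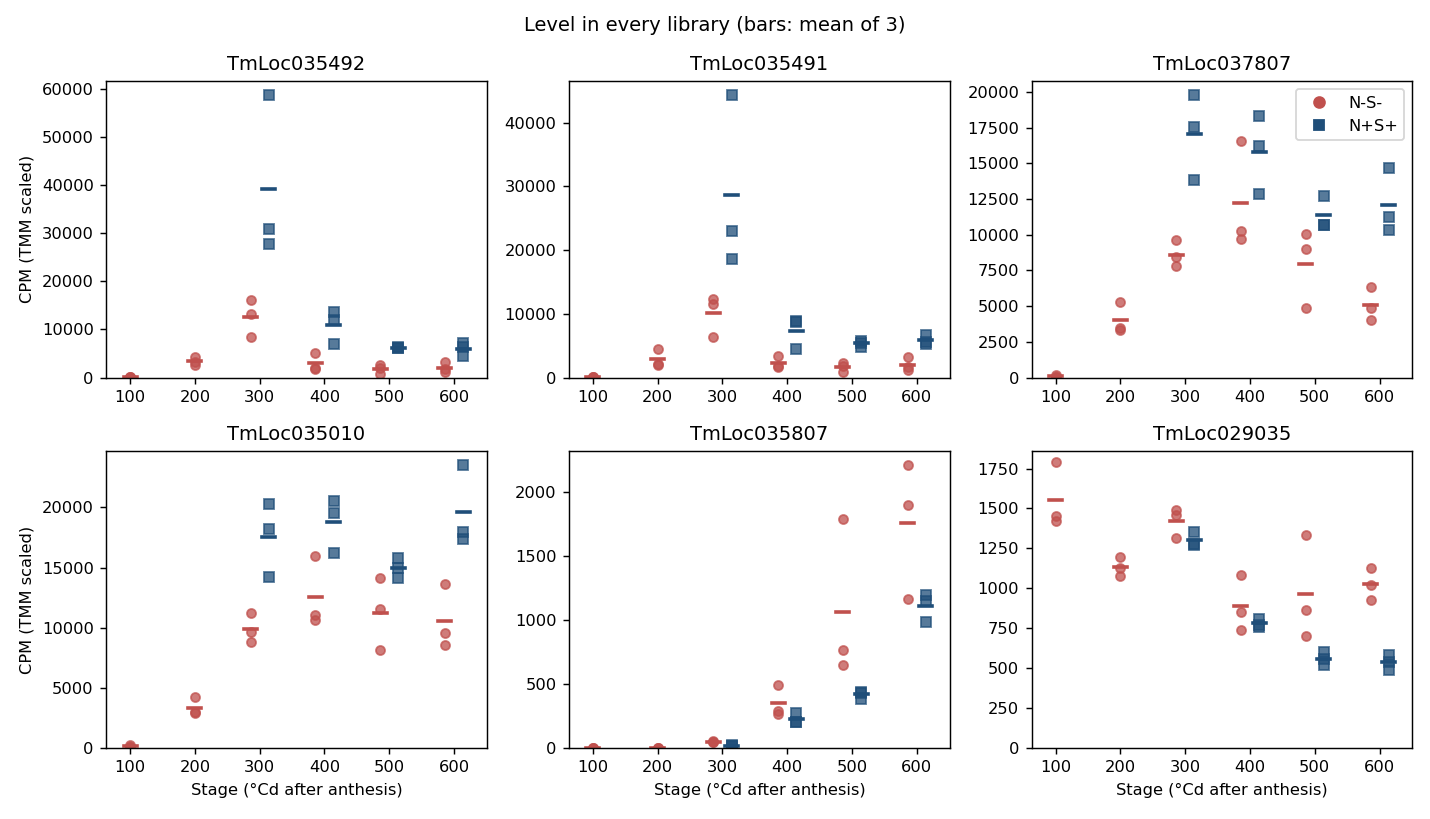
CPM in each library against stage (°Cd after anthesis) for 4 genes lower and 2 genes higher in unfed grain, averaged over 300 to 600 °Cd. Circles are N-S- and squares N+S+ libraries, bars are means of 3, and each panel has its own scale from 0. TmLoc035492, TmLoc035491 and TmLoc035010 do not overlap at any fed stage, TmLoc037807 overlaps at 400 °Cd, TmLoc035807 is higher in N-S- grain at 300 and 500 °Cd without overlap, and TmLoc029035 at 500 and 600 °Cd.

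Among the 8 genes higher in unfed grain, TmLoc035807, one of the late genes, differed most. It had 51.5, 42.7 and 48.5 CPM in N-S- libraries of 300 °Cd, against 14.3, 15.9 and 20.7 in N+S+ grain, and 289, 264 and 490.5 at 400 °Cd, against 201, 268 and 203. At 500 °Cd it had 762, 645 and 1791 CPM in the N-S- libraries, against 430.1, 439 and 385 in N+S+ grain, and at 600 °Cd 1902, 1164 and 2211, against 987, 1195 and 1149.8. The groups did not overlap at 300 and 500 °Cd, and at 400 and 600 °Cd the lowest N-S- library fell among the N+S+ libraries. The averaged response was 1.03 ± 0.13, or 2.05-fold higher (adjusted p 3.85e-07).

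TmLoc029035, highest at 100 °Cd, differed between treatments late in filling. It had 1458, 1315 and 1490.3 CPM in N-S- libraries of 300 °Cd, against 1355, 1277 and 1271 in N+S+ grain, and the groups overlapped. At 600 °Cd it had 1023, 924 and 1124 CPM in the N-S- libraries, against 536, 581 and 489.8 in N+S+ grain, with no overlap. The averaged response was 0.51 ± 0.08 (adjusted p 4.86e-05).

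The next in size was TmLoc028364 (0.48 ± 0.10, adjusted p 0.00246), which averaged 3801 ± 311 CPM in N-S- grain at 300 °Cd, its highest N-S- stage, against 2519 ± 148 in N+S+ grain, and 1052 ± 405 at 600 °Cd, against 739 ± 229. It was not called without 500 °Cd (adjusted p 0.0859). TmLoc037092 (0.44 ± 0.10, adjusted p 0.00671) averaged 289 ± 24.7 CPM in the N-S- libraries of 400 °Cd, against 169.7 ± 37.1 in N+S+ grain. That was its only stage without overlap, and it was not called there (adjusted p 0.0663). Without replicate 3 of N-S- grain at 300 °Cd the adjusted p of its averaged response was 0.0467. TmLoc030167 (0.33 ± 0.07, adjusted p 0.00291) was higher in 12 of 12 N-S- libraries than the mean of N+S+ grain at their stage. TmLoc031120 (0.31 ± 0.09, adjusted p 0.0410), TmLoc032811 (0.28 ± 0.08, adjusted p 0.0368) and TmLoc033818 (0.25 ± 0.07, adjusted p 0.0241) completed the 8. With 1 of the 24 libraries left out at a time, TmLoc031120 lost its call in 12 of the 24 fits (adjusted p up to 0.0943, without replicate 2 of N+S+ grain at 500 °Cd). TmLoc032811 lost it in 11 (up to 0.0884, without replicate 3 of N-S- grain at 600 °Cd). TmLoc033818 lost it in 3 (up to 0.0512), namely without replicate 3 of N-S- grain at 400 °Cd or replicate 2 or 3 of N+S+ grain at 300 °Cd.

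Of the 12 leading genes, 5 were called in the averaged response, TmLoc035492, TmLoc035491, TmLoc037807 and TmLoc035010 as lower and TmLoc031120 as higher. The other 7 had responses of 0.25 ± 0.13 (TmLoc035876), -0.22 ± 0.13 (TmLoc037095), -0.31 ± 0.11 (TmLoc029675), -0.25 ± 0.11 (TmLoc041442), -0.13 ± 0.12 (TmLoc035853), 0.08 ± 0.10 (TmLoc034037) and 0.21 ± 0.11 (TmLoc027073). None of these 7 had an adjusted p under 0.05, which does not show that they were equal.

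Stage by stage, fewer members passed the test. The median size of the log2 response over the 60 was 0.20 at 300, 0.28 at 400, 0.27 at 500 and 0.14 at 600 °Cd. Over all genes tested it was larger, at 0.23, 0.34, 0.40 and 0.25. The members are also more abundant than most genes tested, so the shares called compare unlike genes. At 300 °Cd the call was 1 of the 60, higher in N-S- grain, as were 0.131% of all genes tested, with 0.262% called either way: TmLoc035807, at 47.6 ± 4.50 CPM in the N-S- libraries, against 17.0 ± 3.32 in N+S+ grain (1.49 ± 0.29, adjusted p 0.00775), lost without replicate 1 of N-S- or replicate 1 or 2 of N+S+ grain (adjusted p up to 0.0926). At 300 °Cd TmLoc035492 and TmLoc035491 were not called (adjusted p 0.0563 and 0.0718). Their N+S+ libraries spread widely at this stage, and why they were not called was not tested.

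At 400 °Cd 4 were called, 1 higher (0.22% of all genes tested) and 3 lower (0.131%), 0.351% being called either way. They were TmLoc035492 (-1.88 ± 0.40, adjusted p 0.0160), TmLoc035491 (-1.68 ± 0.37, adjusted p 0.0257), TmLoc033692 and TmLoc032811. TmLoc033692, one of the 3 genes with no count at 600 °Cd in N+S+ grain, had 17.7, 22.8 and 5.56 CPM in the N-S- libraries, against 35.2, 59.9 and 60.3 in N+S+ grain (-1.76 ± 0.30, adjusted p 0.00212). TmLoc032811, a late gene, had 767, 803 and 952 CPM, against 556, 452 and 560.2 (0.69 ± 0.16, adjusted p 0.0321). All 4 have their highest N-S- mean at another stage. With 1 of the 6 libraries of the stage left out at a time, TmLoc035492 lost its call in 4 fits (N-S- replicate 1 or 3, N+S+ replicate 1 or 3) and TmLoc032811 in 4 (N-S- replicate 3 and each N+S+ replicate). TmLoc033692 lost it in 1, without N-S- replicate 3. The adjusted p was highest without N-S- replicate 3, at 0.261 for TmLoc035492, 0.0672 for TmLoc033692 and 0.280 for TmLoc032811. The count was 2 without N-S- replicate 1 (0.253% of all genes tested in that fit), 0 without N-S- replicate 3 (0.0633%) and 1 without N+S+ replicate 1 (0.213%) or 3 (0.241%).

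At 500 °Cd 8 were called, 4 higher (0.941% of all genes tested) and 4 lower (2.86%), 3.8% being called either way, and treatment and lane cannot be told apart. The largest decreases were in TmLoc040273 (-2.27 ± 0.50, adjusted p 0.00649) and TmLoc035492 (-1.81 ± 0.40, adjusted p 0.00591), and the largest increases in TmLoc035807 (1.35 ± 0.24, adjusted p 0.000736) and TmLoc029035 (0.79 ± 0.16, adjusted p 0.00384). TmLoc029035 lost its call without N-S- replicate 3 (adjusted p 0.0577). Fitted to the 2 groups alone, 2 members were called at this stage, where 0.431% of all genes in that fit were called. At 600 °Cd the call was 1 of the 60, higher in N-S- grain, as were 0.161% of all genes tested, with 0.304% called either way: TmLoc029035, at 1024 ± 100.1 CPM in the N-S- libraries, against 535 ± 45.5 in N+S+ grain (0.94 ± 0.16, adjusted p 0.00172). Without N-S- replicate 1 or 2, or N+S+ replicate 3, of 600 °Cd the count was 3, 2 and 4, where 0.236%, 0.339% and 0.538% of all genes were called.

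Without a test, the ranges of the 3 N-S- and 3 N+S+ libraries can be set side by side. At 300 °Cd 13 of the 60 genes were higher without overlap in N-S- grain, as were 8.78% of all genes tested, and 14 lower, as were 8.87%. The counts were 8 higher (7.55% of all genes) and 14 lower (7.22%) at 400 °Cd, and 9 higher (5.54%) and 16 lower (11.5%) at 500 °Cd. At 600 °Cd they were 1 higher (5.49%) and 5 lower (4.87%). The share of members without overlap was thus above that of all genes at 300, 400 and 500 °Cd and near it at 600 °Cd. High N-S- levels at these same stages helped to choose the members, which favours genes higher in N-S- grain. The members are also more abundant than most genes tested, so these shares are a description only. Of the 60 genes, 16 overlapped between treatments at every stage, a count with no share of all genes to set beside it.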

How the data were processed

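Strand-specific libraries of polyadenylated RNA from whole grain were read from both ends over 125 bases, according to the labels. The authors deposited 1 table for each treatment. Per the file headers it gives the raw count and the normalised value of every accession in every library, the accession's length and an undefined covered length. The submitters' processing notes name CASAVA 1.8.4, BWA 0.7.12-r1039 and edgeR. Neither the reference nor the counter is named in the sources used here. All tests started from the deposited raw counts. The deposited normalised signal (normalised CPM) is the raw count divided by a constant per library, set within each table, and served only to choose and rank members, since values from different tables are not on 1 scale.

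Raw counts of the 32047 accessions of the N-S- and N+S+ tables were joined. Genes were kept with filterByExpr by group, which left 16789, and scaled by TMM. One edgeR 4.0.16 quasi-likelihood model (R 4.3.3) was fitted to the 30 libraries, with 1 mean for each group, with p-values adjusted by Benjamini-Hochberg over the 16789 genes and calls at an adjusted p under 0.05. The SE is the size of the log2 fold change over the root of F. Shares are raw counts over the library total. Library totals ran from 1344965 to 5356417 counts and the 60 members summed to 170351 to 753880 counts per library. The model was tested on simulated counts.

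Groups and lanes come from the sample labels. Over the 30 replicate pairs the lowest chi-square per degree of freedom was 2.50, where sampling alone gives about 1, and 0 pairs were identical, so each library counts once. Deviations of same-numbered libraries from their group means correlated at -0.0448 to 0.0942 over 12 pairs of libraries of the same stage, so replicate numbers were not taken to pair libraries. Members named in the text were the first 12, the 8 called with the largest change each way for the averaged response, 2 each way for a single stage and 4 each way for 600 against 300 °Cd. The members and lists were chosen with earlier results of these data known. Alternatives were DESeq2 1.42.0, its size factors in edgeR, TMM without the members, no filter, the compared groups alone, a replicate block, stage 500 left out, other ways to rank the 60, and each library or replicate left out. The N+S- and N-S+ tables served only to find which accessions they hold.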

Additional observations from a re-analysis of the deposited data

Results flagged for a closer look

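In 6 of the 60 genes, 10.0% of them against 4.43% of all genes tested, the treatments did not overlap at 2 or more stages and differed there in opposite directions. TmLoc032012 had a log2 response (N-S- over N+S+) of 0.41 at 300 °Cd and -0.42 at 400 °Cd, and TmLoc032092 one of 0.13 at 300 °Cd and -0.29 at 400 °Cd. TmLoc033206, a late gene, had 0.49 at 300 °Cd and -0.55 at 500 °Cd, and TmLoc039152 had 0.16 at 300 °Cd and -0.15 at 500 °Cd. The other two ran the opposite way: TmLoc033795 had -0.19 at 300 °Cd and 0.35 at 400 °Cd, and TmLoc039164 had -0.21 at 300 °Cd, 0.33 at 400 °Cd and 0.62 at 500 °Cd. Of these responses that of TmLoc039164 at 500 °Cd was called in edgeR. The differences between stages were not tested. High N-S- levels chose the members, and TmLoc032012 and TmLoc032092 have their highest N-S- mean at 300 °Cd. Their higher level in N-S- grain at that stage is thus favoured by the choice. The members are also more abundant than most genes tested, so the percentages above compare unlike genes.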

How the results depend on the processing

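No call of a named gene reversed: of 828 alternative fits of named genes, 738 kept the call and 90 lost it. Of the 16 genes named for the averaged response, 9 kept their call with 300, 400 and 600 °Cd only and 7 lost it.

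The averaged response called 18 members (3.38% of all genes), 9 from 300, 400 and 600 °Cd only (0.971%), and 11 when the N-S- 500 °Cd libraries were also left out of the fit (1.49%), an alternative chosen after seeing the data. The share of all genes called in the same fit stands in brackets. At 300 °Cd (1, 0.262%) the count was 2 with DESeq2 (0.357%) and with the replicate block (0.286%), 10 with no filter (0.421%), 16 with the compared groups alone (2.31%), 3 without the N-S- 500 °Cd libraries (0.328%), and 3 and 0 for the 60 ranked per length and by the mean of the stage means. At 400 °Cd (4, 0.351%) it was 8 with DESeq2 (1.29%), 10 with no filter (0.891%) and 8 per length. At 500 °Cd (8, 3.8%) it was 17 with no filter (3.21%) and 2 with the compared groups alone (0.431%). At 600 °Cd (1, 0.304%) it was 9 with no filter (0.602%), 3 with the compared groups alone (0.178%), 4 with the replicate block (0.393%), 4 without the N-S- 500 °Cd libraries (0.615%) and 2 per length. In N+S+ grain the steps of 400 against 300 and 500 against 400 °Cd (26 each) gave 15 and 17 for the 60 ranked by the mean of the stage means. The difference of responses (0, 0.0417%) gave 2 with no filter (0.281%). The cause of these shifts was not tested.

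Leaving out 1 library, or 1 replicate number in every group, gave 7 to 19 for the averaged response (8 without replicate 1, 1.15% of all genes, and 7 without replicate 3, 1.07%, in every group), 0 to 1 at 300, 0 to 5 at 400, 3 to 10 at 500 and 1 to 4 at 600 °Cd. It gave 40 to 43 for 600 against 300 °Cd in N+S+ grain, 19 to 24 for 400 against 300, 17 to 25 for 500 against 400 and 3 to 19 for 600 against 500 °Cd. The share of all genes called also changed between such fits, as given above for some of them, so these ranges do not concern the members alone. No share is set beside the 3 for 600 against 500 °Cd or the other ends not covered above. Those counts are therefore not read as results about the members. The difference of responses gave 0 to 1 (1 without N-S- replicate 2 of 600 °Cd), and the share difference -1.64 to -1.26 points. With replicate numbers as a block the averaged response again gave 18, and same-numbered libraries did not deviate together.

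Of the 60 members, 47 were also among the 60 ranked by the mean of the 6 stage means, 36 among those ranked per length, 59 without 500 °Cd and 52 among the 60 highest of the N+S+ table. Depth limits the scarce stages of TmLoc033692, TmLoc030328 and TmLoc042794, where a group summed to 0 counts and 3 counts served as the floor. Whether a gene belongs to a family of near-identical copies could not be assessed.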
